A study of Homo sapiens with 8 samples.

Results

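Sterol and fatty acid synthesis genes were followed in MCF10A cells, an immortalised, non-tumorigenic line of human breast epithelium. The 35 genes were given as a list of symbols, and every table entry carrying one of their symbols was taken. All 35 were present once among 29991 entries. The list held 16 enzymes of the mevalonate and sterol pathway, 5 regulators of the pathway, 2 sterol transport proteins and 12 genes of fatty acid synthesis, desaturation and elongation. The cells had been transfected with siRNA against LATS1, LATS2 and p53 together (siLATS1/2/p53), against LATS1 and LATS2 (siLATS1/2), against p53 (sip53), or with a control siRNA (siControl). LATS1 and LATS2 are kinases of the Hippo pathway, and p53 is a transcription factor and tumour suppressor. Each of the 4 groups had 2 libraries of polyadenylated RNA, and per the labels replicates 1 and 2 came from independent batches of cells. Neither the labels nor the design text used here state the number or sequences of the siRNAs, so effects of the lost target and of the siRNA itself cannot be told apart.

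The values were expression levels on a log2 scale with a floor of 5, and all 35 genes lay above that floor in all 8 libraries. The lowest was TM7SF2, at 6.80 in a sip53 library. The floor therefore did not shorten any of the differences given for these genes. Read depth is unknown, and each library had 11756 to 12064 entries over the floor. LATS1 lay between 7.90 and 8.10 in the 4 libraries with LATS1/2 siRNA, against 9.54 to 9.94 in the other 4. LATS2 lay between 8.63 and 8.81 in the same 4 libraries, against 9.74 to 10.22 in the others. CDKN1A, a transcriptional target of p53, lay between 9.82 and 10.16 in the 4 libraries with p53 siRNA, against 12.29 to 13.07 in the other 4. All 5 adipocyte markers were at the floor in all libraries, as were 3 of 4 fibroblast markers and 3 of 4 blood and endothelial markers. In bulk RNA, fewer cells of a type and less RNA per cell cannot be told apart.

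Epithelial markers differed between the groups. The 9 markers listed for basal epithelium included CDH1 and EPCAM, which are not particular to basal cells. All 9 were above the floor in all libraries. Their summed level (log2) was 17.46 to 17.69 in siLATS1/2/p53 cells and 17.33 to 17.67 in siLATS1/2 cells. It was 17.55 to 17.88 in sip53 cells and 17.58 to 17.97 in siControl cells. This sum joins genes that differed in opposite directions. Of the 9, 5 changed in siLATS1/2/p53 against siControl cells by limma, beside 14.6% of all entries. CDH1 (1.26) and EPCAM (0.91) were higher and TP63 (-0.92), ITGB4 (-0.80) and ITGA6 (-0.48) lower. CDH1 and EPCAM also rose in siLATS1/2 against siControl cells, by 0.61 and 0.64. With the batch of cells as a term, 7 passed in siLATS1/2 against siControl cells (2 higher, 5 lower), beside 32.0% of all entries. In sip53 against siControl cells 0 passed without that term and 6 with it (3 higher, 3 lower), beside 26.0%. In siLATS1/2/p53 cells 6 passed against siControl cells (2 higher, 4 lower), beside 39.2%. Against siLATS1/2 cells 7 did (4 higher, 3 lower), beside 43.5%, and against sip53 cells 5 did (2 higher, 3 lower), beside 22.1%.

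Of 4 luminal markers, FOXA1 and GATA3 were above the floor in all libraries, ESR1 in 4 libraries and PGR in none. Their summed level was 8.92 to 9.21 in siLATS1/2/p53 cells, 8.94 to 9.18 in siLATS1/2 cells, 8.47 to 8.83 in sip53 cells and 8.50 to 8.75 in siControl cells. None of the 3 tested passed without the batch of cells as a term. At an unadjusted p below 0.05 there were 2 in siLATS1/2 against siControl cells, beside 3107 of the 12315 entries tested. In siLATS1/2/p53 cells there was 1 against siControl cells, beside 3774 entries, and 1 against siLATS1/2 cells, beside 4094. With the batch of cells as a term ESR1 and GATA3 were higher in siLATS1/2 against siControl cells, beside 32.0% of all entries. FOXA1 and GATA3 were higher in siLATS1/2/p53 against siControl cells, beside 39.2%. In siLATS1/2/p53 cells ESR1 was then lower than in siLATS1/2 cells, beside 43.5%, and FOXA1 higher than in sip53 cells, beside 22.1%. ESR1 lay at or near the floor, at 5.75 and 6.26 in siLATS1/2 cells and at 5 and 5.15 in siControl cells. The part of these marker differences in the results below was not tested.

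Cells build cholesterol from acetyl-CoA through mevalonate, squalene and lanosterol, and build fatty acids from the same precursor through malonyl-CoA. SREBF1 and SREBF2 encode the SREBP transcription factors, which are held in the endoplasmic reticulum with their escort SCAP by the INSIG proteins when sterols are plentiful. When sterols are scarce, the SREBPs are cleaved and raise the genes of both arms, with SREBP-2 acting mainly on the sterol arm and SREBP-1c mainly on the fatty acid arm. INSIG1 and STARD4 are themselves known SREBP targets. Desaturases then place double bonds in fatty acids and elongases lengthen them.

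The sequences of 4 promoters are shown because FADS3, ELOVL7, TM7SF2 and INSIG1 carried all the differences that passed the test whichever library was left out. Each runs from 250 bases before to 50 after the annotated start, in the direction of the gene, from RefSeq on GRCh38.p14. The FADS3 promoter lies at chr11:61891496-61891795 on the minus strand and that of ELOVL7 at chr5:60844220-60844519 on the minus strand. The TM7SF2 promoter lies at chr11:65111622-65111921 on the plus strand and that of INSIG1 at chr7:155297628-155297927 on the plus strand. Capitals mark the NF-Y box (CCAAT or its reverse complement ATTGG), the E-box (CACGTG) and, in INSIG1, a match to the p53 half-site.
FADS3: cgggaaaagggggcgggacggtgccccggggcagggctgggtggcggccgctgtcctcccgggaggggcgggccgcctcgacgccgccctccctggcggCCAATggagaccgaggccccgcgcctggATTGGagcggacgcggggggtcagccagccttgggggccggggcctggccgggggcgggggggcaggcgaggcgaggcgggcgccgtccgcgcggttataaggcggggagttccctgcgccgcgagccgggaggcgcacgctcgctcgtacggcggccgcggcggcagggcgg
ELOVL7: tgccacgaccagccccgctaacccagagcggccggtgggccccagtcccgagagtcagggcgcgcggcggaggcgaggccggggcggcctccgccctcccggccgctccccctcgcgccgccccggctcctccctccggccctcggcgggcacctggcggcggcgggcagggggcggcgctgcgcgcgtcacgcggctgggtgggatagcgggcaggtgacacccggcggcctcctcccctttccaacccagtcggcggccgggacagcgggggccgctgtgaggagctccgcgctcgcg
TM7SF2: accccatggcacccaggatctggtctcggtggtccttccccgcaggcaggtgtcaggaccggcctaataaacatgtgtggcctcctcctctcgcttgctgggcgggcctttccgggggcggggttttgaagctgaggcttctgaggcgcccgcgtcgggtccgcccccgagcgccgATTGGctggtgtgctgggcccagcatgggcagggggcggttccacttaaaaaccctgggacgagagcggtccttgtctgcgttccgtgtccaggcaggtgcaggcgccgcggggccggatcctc
INSIG1: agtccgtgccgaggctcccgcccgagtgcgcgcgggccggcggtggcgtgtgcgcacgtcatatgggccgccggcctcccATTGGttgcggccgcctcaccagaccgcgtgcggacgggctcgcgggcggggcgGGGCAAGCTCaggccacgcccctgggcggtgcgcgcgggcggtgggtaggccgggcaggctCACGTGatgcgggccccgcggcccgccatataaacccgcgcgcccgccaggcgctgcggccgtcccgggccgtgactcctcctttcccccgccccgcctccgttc
FADS3 held a CCAAT box on its own strand starting at position -151 and another on the opposite strand at -123. TM7SF2 held 1 on the opposite strand at -74. INSIG1 held 1 on the opposite strand at -170, the half-site match at -116 and the E-box at -55. In ELOVL7 none of the 5 motifs searched was found in this window.

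Promoter sequences were at hand for 31 of the 35 genes, with 41 promoters in all. None was at hand for ACAT2, FDFT1, SQLE or FASN. Both strands were searched. CCAAT occurred in 61.0% of the 41 promoters, against 34.6% of the 35116 RefSeq promoters of the same length. The E-box occurred in 9.76% of the 41, against 7.26% of all. A sterol regulatory element, searched as TCACNCCAC, occurred in 1 of the 41 (2.44%), that of SREBF2, against 1.13% of all. Only exact matches within the window were counted, so variant or more distant elements would be missed. The TEAD site CATTCC, read by the factors that YAP and TAZ bind, occurred in 12.2%, against 14.0% of all. The p53 half-site occurred in 4.88%, in MVK and INSIG1, against 6.63% of all.

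Across the 35 genes, 11 changed in at least 1 of 5 comparisons between siRNA groups, beside 25.0% of all entries tested. With the batch of cells as a term in the fit, those 11 and 15 further genes did, beside 67.1% of all entries. The other 9 passed in neither fit. FADS3, a desaturase family member, and ELOVL7, an elongase, were lower with p53 siRNA, and FADS3 was also higher with LATS1/2 siRNA. TM7SF2, a sterol reductase, was higher with LATS1/2 siRNA in both p53 settings. INSIG1 was lowest in the siLATS1/2/p53 cells, in which it fell against each of the other groups. Differences were tested with limma over the 12315 entries that exceeded the floor in 2 or more libraries, and a difference passed at a Benjamini-Hochberg adjusted p below 0.05.

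In siLATS1/2 cells against siControl cells, 4 of the 35 genes rose and 0 fell, and 7.70% of all entries tested passed (2.81% higher, 4.89% lower). In sip53 against siControl cells 0 rose and 2 fell, beside 3.86% of all entries (1.76% higher, 2.10% lower). Against siControl, siLATS1/2/p53 cells had 4 genes that rose and 3 that fell, beside 14.6% of all entries (9.07% higher, 5.48% lower). Against siLATS1/2 cells they had 2 that rose and 4 that fell, beside 14.5% of all entries (11.3% higher, 3.22% lower). Against sip53 cells they had 2 that rose and 1 that fell, beside 3.66% of all entries (2.54% higher, 1.12% lower). These comparisons share libraries and are not independent of each other. Of the 22 differences that passed, 10 were 2-fold or larger, all of them in FADS3, ELOVL7 or TM7SF2.

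The libraries with the same number were taken to share a batch of cells, and a second fit held the batch as a term. With it, 13 genes passed in siLATS1/2 against siControl cells (8 higher, 5 lower), beside 32.0% of all entries (10.5% higher, 21.4% lower). In sip53 against siControl cells 11 passed (4 higher, 7 lower), beside 26.0% (16% higher, 10% lower). For siLATS1/2/p53 against siControl cells the number was 22 (14 higher, 8 lower), beside 39.2% (25.5% higher, 13.8% lower). It was 17 (9 higher, 8 lower) for siLATS1/2/p53 against siLATS1/2 cells, beside 43.5% (33.8% higher, 9.72% lower). It was 11 (7 higher, 4 lower) for siLATS1/2/p53 against sip53 cells, beside 22.1% (12.7% higher, 9.42% lower). All 22 differences that passed without the batch term passed with it.

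As shares of the 35 genes, the numbers called with the batch term were 37.1%, 31.4%, 62.9%, 48.6% and 31.4% in the order given. The third, for siLATS1/2/p53 against siControl cells, lay farthest above the share of all entries. All 35 genes were above the floor in every library, whereas entries close to the floor were among those tested, and the part of expression level in these shares was not tested. The deposited scaling also bore on the directions. The median difference of all entries in siLATS1/2/p53 minus siLATS1/2 was 0.15, and rescaling the libraries by medians of ratios shifted it by -0.16. After that rescaling 0 genes of the list were higher and 5 lower in this comparison, and 4 higher and 5 lower in siLATS1/2/p53 against siControl cells. With the batch term and the rescaling together, 12 were higher and 3 lower in siLATS1/2 against siControl cells, and 5 higher and 14 lower in siLATS1/2/p53 against siLATS1/2 cells.

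**Figure D1:**
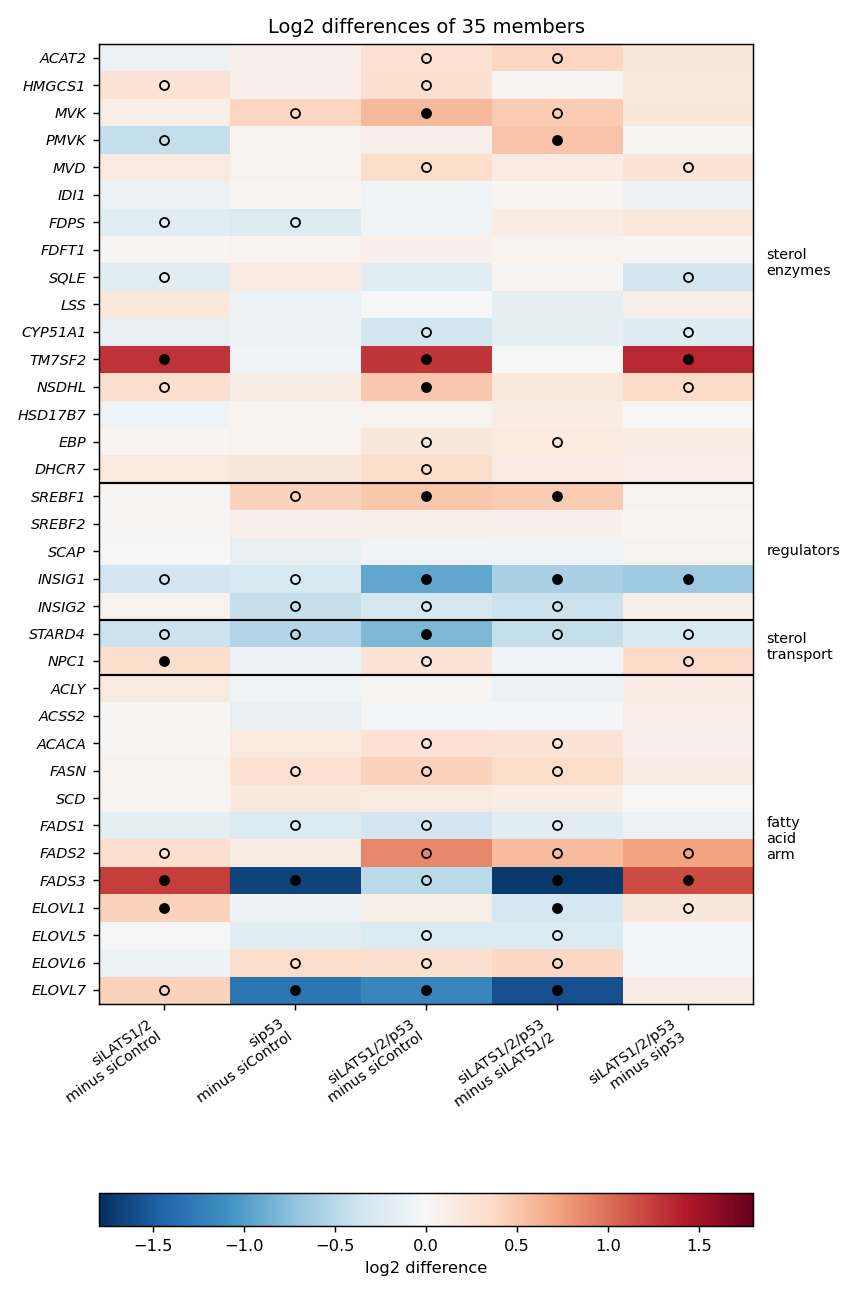
Log2 difference of each of the 35 genes (rows, grouped by role) in the 5 comparisons (columns), from blue (lower) to red (higher). Filled dots mark differences that passed the test and open dots those that passed only with the batch as a term. FADS3, ELOVL7 and TM7SF2 carry the darkest cells, from -1.74 to 1.36.

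Among the 16 sterol enzymes, TM7SF2, MVK, PMVK and NSDHL rose in at least 1 comparison without the batch term, and none fell. Of all entries, 25.0% passed in at least 1 of the 5 comparisons, in either direction. With the batch term PMVK, SQLE, FDPS and CYP51A1 were lower in some comparisons. TM7SF2 reduces a double bond in sterols after lanosterol. Its levels were 8.33 and 8.12 in siLATS1/2/p53 cells, 8.28 and 8.20 in siLATS1/2 cells, 6.93 and 6.80 in sip53 cells, and 6.91 and 6.98 in siControl cells. The 4 libraries with LATS1/2 siRNA all lay above the 4 without it. The difference was 1.30 ± 0.14 (log2 ± SE, adjusted p 0.00463) in siLATS1/2 against siControl cells, 1.28 ± 0.14 (adjusted p 0.00239) in siLATS1/2/p53 against siControl cells and 1.36 ± 0.14 (adjusted p 0.00408) in siLATS1/2/p53 against sip53 cells. These correspond to 2.46-fold, 2.44-fold and 2.57-fold higher levels. The first of them had an adjusted p of 0.0539 without siLATS1/2 replicate 1. In sip53 against siControl cells and in siLATS1/2/p53 against siLATS1/2 cells TM7SF2 did not pass in either fit.

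The exons of TM7SF2 overlap those of VPS51 on the same strand, so reads of the pair may have been shared out by the counting. VPS51, listed under its older symbol C11orf2, differed by -0.17 (adjusted p 0.696) in siLATS1/2 against siControl cells, by 0.25 (0.484) in siLATS1/2/p53 against siControl cells and by 0.17 (0.742) in siLATS1/2/p53 against sip53 cells. None of these passed.

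MVK and PMVK phosphorylate mevalonate in successive steps. MVK had 10.43 and 10.38 in siLATS1/2/p53 cells, 9.87 and 10.02 in siLATS1/2 cells, 10.25 and 10.16 in sip53 cells, and 9.63 and 10.02 in siControl cells. It rose by 0.58 ± 0.14 (adjusted p 0.0318) in siLATS1/2/p53 against siControl cells, and both siLATS1/2/p53 libraries lay above all 6 others. This call was kept only without siControl replicate 2, and without any other single library the adjusted p was 0.0506 to 0.132. MVK overlaps MMAB on the opposite strand, and the library kit does not keep strand. MMAB differed by 0.47 (adjusted p 0.0822) in that comparison.

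PMVK had 9.21 and 9.0 in siLATS1/2/p53 cells, 8.59 and 8.57 in siLATS1/2 cells, 9.15 and 9.02 in sip53 cells, and 8.98 and 9.05 in siControl cells. The siLATS1/2 libraries were the lowest of the 8. PMVK rose by 0.52 ± 0.12 (adjusted p 0.029) in siLATS1/2/p53 against siLATS1/2 cells. After rescaling the difference was 0.36 (adjusted p 0.0754). It also missed the threshold without siLATS1/2/p53 replicate 1, either siLATS1/2 library or either sip53 library, at 0.0552 to 0.136.

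NSDHL takes part in removing methyl groups from lanosterol. Its levels were 11.18 and 11.20 in siLATS1/2/p53 cells, 10.89 and 11.11 in siLATS1/2 cells, 10.88 and 10.79 in sip53 cells, and 10.76 and 10.65 in siControl cells. Both siLATS1/2/p53 libraries lay above all others, and both siControl libraries below. NSDHL rose by 0.49 ± 0.10 (adjusted p 0.0196) in siLATS1/2/p53 against siControl cells, and without any one of those 4 libraries the adjusted p was 0.0541 to 0.0832.

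The remaining sterol enzymes moved by less than 0.5 in every comparison. SQLE, the squalene epoxidase, had 14.69 and 14.46 in siLATS1/2/p53 cells, 14.55 and 14.56 in siLATS1/2 cells, 14.98 and 14.84 in sip53 cells, and 14.83 and 14.70 in siControl cells. The libraries with LATS1/2 siRNA lay below those without it, with the highest at 14.69 and the lowest without it at 14.70. SQLE passed only with the batch term, at -0.33 in siLATS1/2/p53 against sip53 cells (adjusted p 0.184 without and 0.00482 with the term) and at -0.21 in siLATS1/2 against siControl cells (0.305 and 0.0404).

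In siLATS1/2 against siControl cells, 4 further sterol enzymes passed only with the batch term. HMGCS1, the HMG-CoA synthase, differed by 0.25 (adjusted p 0.169 without and 0.0174 with it) and NSDHL by 0.29 (0.116 and 0.0187). PMVK differed by -0.43 (0.0706 and 0.00826) and FDPS, which makes farnesyl diphosphate, by -0.20 (0.248 and 0.0437). In sip53 against siControl cells 0 of the 16 sterol enzymes passed without the batch term. An unadjusted p below 0.05 was found for 2 of them, beside 2631 of the 12315 entries tested. With it, MVK passed at 0.38 (0.171 and 0.0187) and FDPS at -0.25 (0.198 and 0.0195).

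Another 6 passed only with the batch term in siLATS1/2/p53 against siControl cells. ACAT2, the cytosolic thiolase at the entry of the pathway, differed by 0.28 (adjusted p 0.134 without and 0.0254 with it) and HMGCS1 by 0.29 (0.0963 and 0.00607). MVD, the mevalonate diphosphate decarboxylase, differed by 0.31 (0.0811 and 0.00679), the sterol isomerase EBP by 0.21 (0.167 and 0.0182) and the final reductase DHCR7 by 0.32 (0.218 and 0.0032). CYP51A1, the lanosterol demethylase, went the other way at -0.33 (0.0532 and 0.0029). The 2 ACAT2 batches differed in size, at 0.50 and 0.07.

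Against siLATS1/2 cells, siLATS1/2/p53 cells had ACAT2 at 0.39 (adjusted p 0.0562 without and 0.00421 with the batch term), MVK at 0.46 (0.0641 and 0.00395) and EBP at 0.17 (0.232 and 0.0442), which passed only with it. Against sip53 cells the same held for MVD at 0.25 (0.249 and 0.0371), NSDHL at 0.35 (0.112 and 0.00923) and CYP51A1 at -0.22 (0.264 and 0.0456). IDI1, FDFT1, LSS and HSD17B7 passed in no comparison in either fit. ACAT2, CYP51A1, FDPS and HSD17B7 share sequence with overlapping genes or pseudogenes, so their values are uncertain to that extent. Exons of HMGCS1, IDI1, FDFT1, LSS, SREBF2, STARD4 and ACLY overlap genes on the opposite strand that are not annotated as protein-coding. In all, 17 of the 35 genes had an exon overlap of some kind and 5 a named pseudogene, SCD among them. The same limit holds for these.

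**Figure D2:**
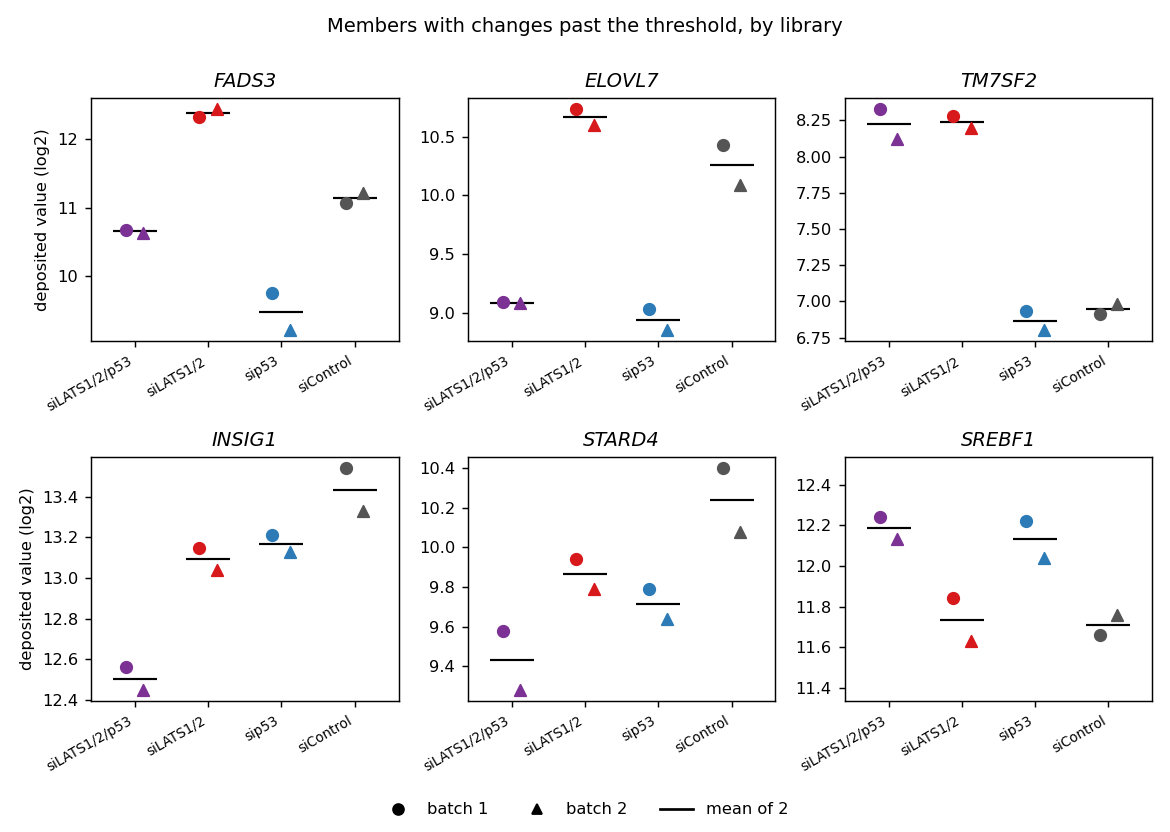
Deposited log2 level by library for 6 genes, with circles for batch 1, triangles for batch 2 and a line at the mean of the 2. Axes differ between panels and do not start at 0. FADS3 is highest in siLATS1/2 cells (12.33 and 12.45) and lowest in sip53 cells (9.74 and 9.20), and INSIG1 is lowest in siLATS1/2/p53 cells (12.56 and 12.45).

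Among the 5 regulators, SREBF1 rose and INSIG1 fell, and the other 3 did not pass without the batch term. INSIG1, which retains the SREBP and SCAP complex, had 12.56 and 12.45 in siLATS1/2/p53 cells, 13.15 and 13.04 in siLATS1/2 cells, 13.21 and 13.13 in sip53 cells, and 13.54 and 13.33 in siControl cells. The siLATS1/2/p53 libraries lay below all others and the siControl libraries above all others. INSIG1 fell by 0.93 ± 0.10 in siLATS1/2/p53 against siControl cells (adjusted p 0.00239, 1.91-fold). It fell by 0.59 ± 0.10 against siLATS1/2 cells (adjusted p 0.0132) and by 0.66 ± 0.10 against sip53 cells (adjusted p 0.0168).

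The first of these 3 INSIG1 differences passed whichever library was left out. The second was at 0.0557 to 0.0909 without any one of the 4 libraries compared, and the third at 0.0818 to 0.12. The single targets passed only with the batch term, with INSIG1 at -0.34 in siLATS1/2 against siControl cells (adjusted p 0.0848 without and 0.00135 with it) and at -0.27 in sip53 against siControl cells (0.19 and 0.00853). The interaction for INSIG1 was -0.32, with an adjusted p of 0.749 without and 0.0872 with the batch term.

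SREBF1 had 12.24 and 12.13 in siLATS1/2/p53 cells, 11.84 and 11.63 in siLATS1/2 cells, 12.22 and 12.04 in sip53 cells, and 11.66 and 11.76 in siControl cells. The 4 libraries with p53 siRNA all lay above the 4 without it. SREBF1 rose by 0.48 ± 0.11 (adjusted p 0.0254) in siLATS1/2/p53 against siControl cells and by 0.46 ± 0.11 (adjusted p 0.0306) against siLATS1/2 cells. In sip53 against siControl cells the difference of 0.42 ± 0.11 passed only with the batch term (0.0772 without and 0.00166 with it). Without any one of the libraries compared the adjusted p was 0.0568 to 0.122 for the first difference and 0.0669 to 0.156 for the second, which was 0.30 (adjusted p 0.0986) after rescaling. SREBF1 overlaps RAI1 on the opposite strand, and RAI1 differed by 0.03 (adjusted p 0.889) and 0.12 (adjusted p 0.476) in these comparisons.

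SREBF2, which encodes SREBP-2, stayed between 13.28 and 13.50 in all 8 libraries. Its differences were between 0.02 and 0.11 with an SE of 0.09, and none passed in either fit. SCAP, the sterol-sensing escort, lay between 11.65 and 11.87, with differences from -0.14 to 0.07 (SE 0.08) that did not pass either. INSIG2, the second retention protein, had 9.23 and 9.02 in siLATS1/2/p53 cells, 9.58 and 9.42 in siLATS1/2 cells, 9.16 and 8.88 in sip53 cells, and 9.67 and 9.21 in siControl cells. It passed only with the batch term, at -0.42 in sip53 against siControl cells (adjusted p 0.241 without and 0.00954 with it), at -0.32 in siLATS1/2/p53 against siControl cells (0.287 and 0.0263) and at -0.38 against siLATS1/2 cells (0.19 and 0.00955).

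STARD4 and NPC1 both move cholesterol within the cell, and they differed in direction. STARD4, a cytosolic carrier, had 9.58 and 9.28 in siLATS1/2/p53 cells, 9.94 and 9.79 in siLATS1/2 cells, 9.79 and 9.64 in sip53 cells, and 10.40 and 10.08 in siControl cells. Both siLATS1/2/p53 libraries were below all others and both siControl libraries above, as for INSIG1. STARD4 fell by 0.81 ± 0.15 (adjusted p 0.0145, 1.76-fold) in siLATS1/2/p53 against siControl cells, and the adjusted p was 0.069 to 0.0762 without siLATS1/2/p53 replicate 2 or siControl replicate 1. In the other comparisons it passed only with the batch term, at -0.38 in siLATS1/2 against siControl cells (0.166 without and 0.00551 with it), at -0.53 in sip53 against siControl cells (0.104 and 0.000836), at -0.43 in siLATS1/2/p53 against siLATS1/2 cells (0.0958 and 0.00177) and at -0.28 against sip53 cells (0.38 and 0.0357).

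NPC1, which releases cholesterol from lysosomes, had 12.72 and 12.71 in siLATS1/2/p53 cells, 12.78 and 12.79 in siLATS1/2 cells, 12.33 and 12.41 in sip53 cells, and 12.46 in both siControl libraries. The 4 libraries with LATS1/2 siRNA lay above the 4 without it. NPC1 rose by 0.32 ± 0.07 (adjusted p 0.0428) in siLATS1/2 against siControl cells, but without any single one of the 8 libraries the adjusted p was 0.0598 to 0.227. It passed only with the batch term in siLATS1/2/p53 against siControl cells (0.25, 0.06 without and 0.00707 with it) and against sip53 cells (0.34, 0.0531 and 0.00178). NPC1 overlaps RMC1, listed as C18orf8, on the opposite strand, and that gene differed by -0.28 (adjusted p 0.195) in siLATS1/2 against siControl cells.

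In the fatty acid arm FADS3, ELOVL7 and ELOVL1 changed, and the enzymes that make the saturated chain did not pass without the batch term. FADS3 belongs to the front-end desaturase family of FADS1 and FADS2 and acts on sphingoid bases. Its levels were 10.67 and 10.63 in siLATS1/2/p53 cells, 12.33 and 12.45 in siLATS1/2 cells, 9.74 and 9.20 in sip53 cells, and 11.07 and 11.21 in siControl cells. None of the 4 groups overlapped, with siLATS1/2 highest, then siControl, siLATS1/2/p53 and sip53.

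FADS3 was 2.38-fold higher in siLATS1/2 than in siControl cells (1.25 ± 0.16, adjusted p 0.00815) and 3.18-fold lower in sip53 than in siControl cells (-1.67 ± 0.16, adjusted p 0.00693). Within siLATS1/2/p53 cells it was 3.34-fold lower than in siLATS1/2 cells (-1.74 ± 0.16, adjusted p 0.0047) and 2.27-fold higher than in sip53 cells (1.18 ± 0.16, adjusted p 0.0121). Against siControl cells the siLATS1/2/p53 difference of -0.49 passed only with the batch term (0.0906 without and 0.0071 with it). Both p53 siRNA differences above 3-fold held whichever library was left out. The rise in siLATS1/2 cells missed the threshold without either siLATS1/2 library or siControl replicate 1 (adjusted p 0.0524 to 0.0605), and the rise against sip53 cells without either siLATS1/2/p53 library (0.0921 and 0.0952).

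ELOVL7 elongates very long saturated and polyunsaturated fatty acids. It had 9.09 and 9.08 in siLATS1/2/p53 cells, 10.74 and 10.60 in siLATS1/2 cells, 9.03 and 8.85 in sip53 cells, and 10.43 and 10.09 in siControl cells. The 4 libraries with p53 siRNA lay between 8.85 and 9.09 and those without it between 10.09 and 10.74. ELOVL7 was 2.49-fold lower in sip53 than in siControl cells (-1.32 ± 0.13, adjusted p 0.00736), 2.25-fold lower in siLATS1/2/p53 than in siControl cells (-1.17 ± 0.13, adjusted p 0.00286) and 2.99-fold lower in siLATS1/2/p53 than in siLATS1/2 cells (-1.58 ± 0.13, adjusted p 0.00352). The first was at 0.0632 without sip53 replicate 2, and the other two passed whichever library was left out. In siLATS1/2 against siControl cells it differed by 0.41, which passed only with the batch term (0.11 without and 0.00564 with it). No overlapping gene or named pseudogene was found for FADS3 or ELOVL7 in GENCODE 29.

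ELOVL1, which makes very long saturated chains, had 12.02 and 12.06 in siLATS1/2/p53 cells, 12.32 and 12.37 in siLATS1/2 cells, 11.84 and 11.81 in sip53 cells, and 11.85 and 12.02 in siControl cells. Both siLATS1/2 libraries were the highest of the 8. ELOVL1 rose by 0.41 ± 0.08 (adjusted p 0.0309) in siLATS1/2 against siControl cells and fell by 0.31 ± 0.08 (adjusted p 0.049) in siLATS1/2/p53 against siLATS1/2 cells. The rise missed the threshold without either siLATS1/2 library, either sip53 library or siControl replicate 1 (0.0662 to 0.163). The fall missed it without any siLATS1/2/p53, siLATS1/2 or sip53 library (0.0919 to 0.194) and at 0.0525 among entries above the floor in all 8 libraries. Against sip53 cells ELOVL1 differed by 0.21 in siLATS1/2/p53 cells (0.237 without and 0.0416 with the batch term).

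FASN, the fatty acid synthase, had 14.31 and 14.43 in siLATS1/2/p53 cells, 14.06 and 14.02 in siLATS1/2 cells, 14.13 and 14.36 in sip53 cells, and 13.86 and 14.07 in siControl cells. The 4 libraries with p53 siRNA lay above the 4 without it. With the batch term FASN passed at 0.41 in siLATS1/2/p53 against siControl cells (adjusted p 0.0588 without and 0.000768 with it), at 0.33 against siLATS1/2 cells (0.0981 and 0.00307) and at 0.28 in sip53 against siControl cells (0.232 and 0.0158).

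ACACA, the acetyl-CoA carboxylase that makes malonyl-CoA, had 13.24 and 13.13 in siLATS1/2/p53 cells, 12.93 and 12.96 in siLATS1/2 cells, 13.12 and 13.07 in sip53 cells, and 12.97 and 12.89 in siControl cells. Here too the 4 libraries with p53 siRNA were above the others. How many of all entries separated in this way, here or for the genes above, was not counted. ACACA passed only with the batch term, at 0.26 in siLATS1/2/p53 against siControl cells (0.0754 without and 0.00652 with it) and at 0.24 against siLATS1/2 cells (0.0876 and 0.00906). SCD, the stearoyl-CoA desaturase, lay between 15.93 and 16.32 in all 8 libraries, and its differences of -0.01 to 0.19 (SE 0.15) did not pass in either fit. ACLY and ACSS2, which supply acetyl-CoA, passed in neither fit.

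FADS1, FADS2, ELOVL5 and ELOVL6 passed only with the batch term. FADS1, a desaturase of polyunsaturated fatty acids, was lower, at -0.25 in sip53 against siControl cells (adjusted p 0.281 without and 0.0231 with it), -0.35 in siLATS1/2/p53 against siControl cells (0.0924 and 0.00176) and -0.20 against siLATS1/2 cells (0.292 and 0.0424). ELOVL5, which lengthens polyunsaturated chains, was at -0.24 in siLATS1/2/p53 against both siControl cells (0.385 and 0.0182) and siLATS1/2 cells (0.36 and 0.0167). ELOVL6, which lengthens the saturated chain made by FASN, was at 0.33 in sip53 against siControl cells (0.432 and 0.00235), 0.29 in siLATS1/2/p53 against siControl cells (0.427 and 0.00332) and 0.37 against siLATS1/2 cells (0.278 and 0.000535).

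FADS2, the first desaturase of the polyunsaturated pathway, had 12.16 and 10.51 in siLATS1/2/p53 cells, 11.59 and 9.94 in siLATS1/2 cells, 11.67 and 9.53 in sip53 cells, and 11.28 and 9.65 in siControl cells. The first library of every group was far above the second, so the groups overlapped widely. Within the batches, siLATS1/2/p53 minus siControl was 0.88 and 0.86, and the mean of 0.87 passed only with the batch term (adjusted p 0.575 without and 2.96e-05 with it). FADS2 also passed only with that term at 0.57 in siLATS1/2/p53 against siLATS1/2 cells (0.705 and 0.00107), at 0.73 against sip53 cells (0.739 and 0.000276) and at 0.30 in siLATS1/2 against siControl cells (0.886 and 0.0498). FADS2 shares exons with FEN1 on the same strand and with FADS1 on the opposite strand and has a named pseudogene, so reads of these genes cannot be told apart from its own. FEN1 had 11.33 and 11.53 in siLATS1/2/p53 cells and 10.71 and 10.9 in siLATS1/2 cells. It had 11.37 and 11.54 in sip53 cells and 10.89 and 11.19 in siControl cells. In every group FEN1 was higher in the second library, unlike FADS2. The part of FEN1 reads in the FADS2 differences was not tested.

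Batch 2 minus batch 1 was -1.77 ± 0.08 for FADS2 (adjusted p 4.03e-09), 3.41-fold lower in batch 2. By size this was rank 35 among the 12315 entries. The difference was -1.65 in siLATS1/2/p53 cells, -1.65 in siLATS1/2 cells, -2.14 in sip53 cells and -1.63 in siControl cells. Between batches 11 of the 35 genes differed, 2 higher and 9 lower in batch 2, beside 30.3% of all entries (12.5% higher, 17.8% lower). After FADS2 the next in size was ELOVL6 at -0.40, and DHCR7 at 0.25 was the larger of those higher in batch 2. What set the batches apart is not given in the labels beyond their being independent, and the part of culture or handling was not tested.

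**Figure D3:**
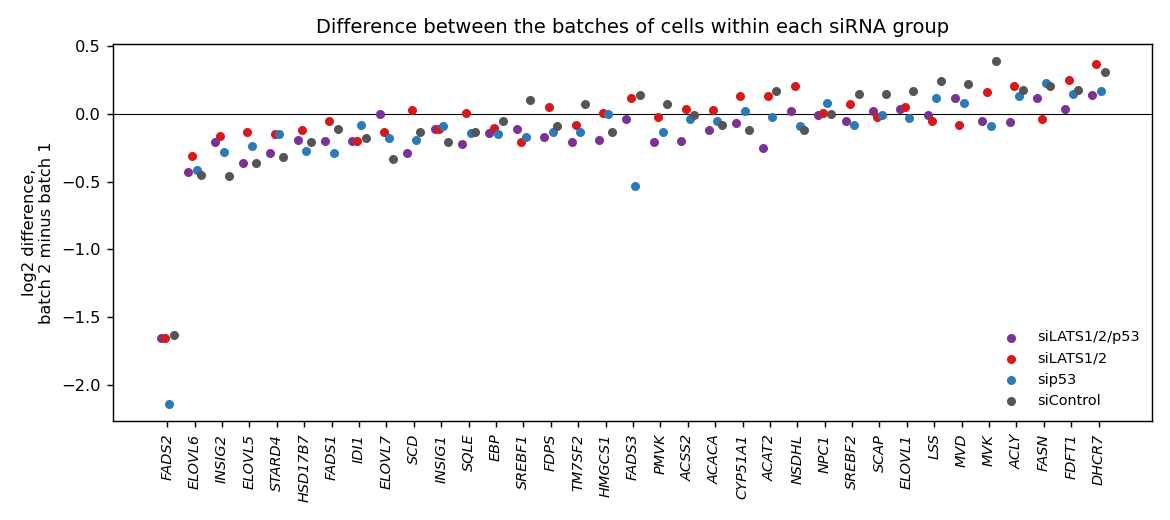
Log2 difference of batch 2 minus batch 1 for the 35 genes, ordered by their mean, with 1 point for each siRNA group. FADS2 stands apart at -2.14 to -1.63, and ELOVL6 follows at a mean of -0.40.

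Set side by side, the sterol enzymes and the fatty acid arm had medians within 0.15 of 0 in every comparison. The fatty acid arm was below all entries in both comparisons of p53 siRNA with its matched cells. So were the 5 regulators (-0.14 in sip53 minus siControl and -0.07 in siLATS1/2/p53 minus siLATS1/2) and the 2 sterol transport genes (-0.31 and -0.25). In siLATS1/2 minus siControl the medians were 0.03 for the sterol enzymes and 0.06 for the fatty acid arm, beside -0.07 for all entries. In sip53 minus siControl the medians of these 2 arms were 0.07 and -0.09, beside 0.06. They were 0.15 and 0.08 in siLATS1/2/p53 minus siControl, beside 0.08.

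For siLATS1/2/p53 minus siLATS1/2 the medians were 0.13 for the sterol enzymes and -0.07 for the fatty acid arm, beside 0.15 for all entries. That of the fatty acid arm was 0.05 in batch 1 and -0.2 in batch 2, beside 0.17 and 0.13 for all entries. With the batch term 4 of its genes were higher and 5 lower in this comparison, beside 33.8% and 9.72% of all entries. For siLATS1/2/p53 minus sip53 the medians of the 2 arms were 0.13 and 0.12, beside 0.01. In the same order the sterol enzymes had 1, 0, 3, 1 and 1 genes that rose, and 0 that fell in any of the 5 comparisons. The fatty acid arm had 2 that rose in siLATS1/2 against siControl cells and 1 in siLATS1/2/p53 against sip53 cells. It had 2 that fell in sip53 against siControl cells, 1 in siLATS1/2/p53 against siControl cells and 3 in siLATS1/2/p53 against siLATS1/2 cells. These counts of both arms stand beside the shares of all entries given above for each comparison.

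**Figure D4:**
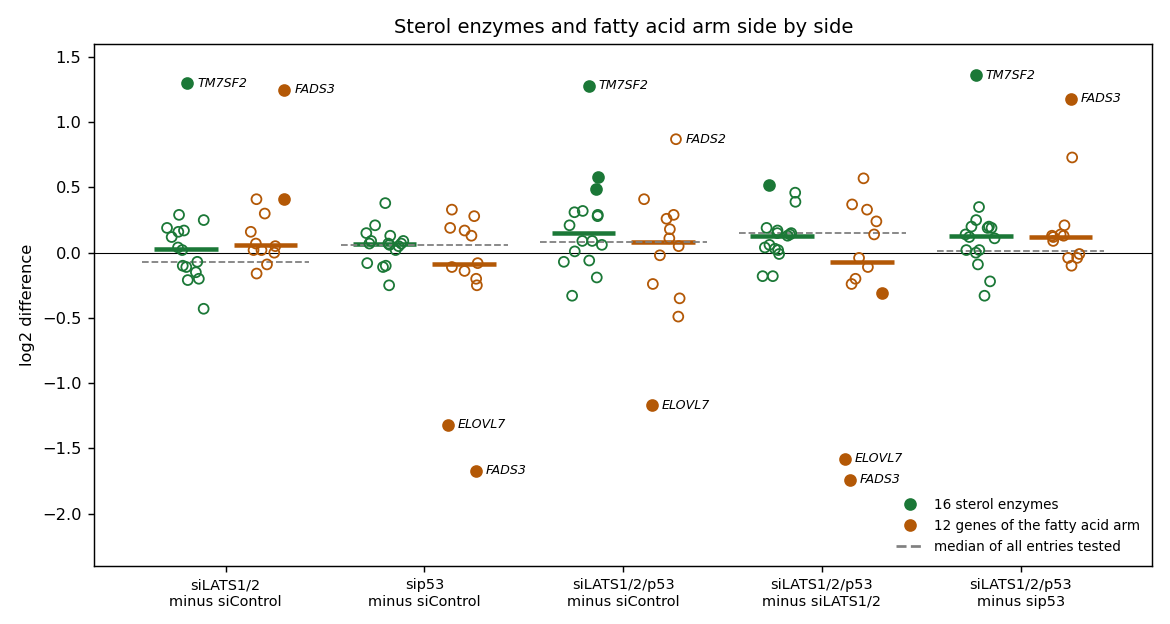
Log2 difference of the 16 sterol enzymes (green) and the 12 genes of the fatty acid arm (orange) in the 5 comparisons. Filled points passed the test, bars are medians and dashed lines the median of all entries tested. Most points lie near 0, with TM7SF2 up to 1.36 and FADS3 down to -1.74.

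The interaction asks whether the p53 siRNA acted differently in cells with and without LATS1/2 siRNA. By limma 0 of the 35 genes and 0% of the 12315 entries passed, and at an unadjusted p below 0.05 there were 2 of the 35 (FDPS and PMVK) and 807 entries. With the batch term 0 of the 35 passed, beside 2.03% of all entries. PMVK had an interaction of 0.45 ± 0.17 (adjusted p 0.749) and FDPS of 0.38 ± 0.14 (adjusted p 0.74). FADS3 had an interaction of -0.07 and TM7SF2 of 0.07.

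Other genes of these pathways were taken from a list of 38, of which 34 were tested. Of 7 other sterol synthesis genes 1 rose in siLATS1/2/p53 against siLATS1/2 cells, beside 11.3% of all entries. This was LBR, by 0.87 ± 0.16 (adjusted p 0.0157), which encodes a lamin-binding protein with sterol reductase activity. No other gene of this group passed in any comparison without the batch term. Of 10 tested genes of sterol uptake, export and SREBP processing, MYLIP rose in all 5 comparisons. MYLIP, a ubiquitin ligase induced by LXR, had 7.79 and 7.55 in siLATS1/2/p53 cells, 6.68 and 6.85 in siLATS1/2 cells, 6.91 and 6.90 in sip53 cells, and 6.13 and 5.99 in siControl cells.

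MYLIP rose by 1.61 ± 0.16 in siLATS1/2/p53 against siControl cells (adjusted p 0.00206, 3.05-fold). It rose by 0.71 in siLATS1/2 and by 0.85 in sip53 against siControl cells, by 0.90 in siLATS1/2/p53 against siLATS1/2 cells and by 0.76 against sip53 cells (adjusted p 0.0138 to 0.0467). Those last 4 lost the call in at least 3 of the 8 fits without a library, at up to 0.255. NR1H3, the oxysterol receptor LXR alpha, rose by 1.28 ± 0.27 in siLATS1/2/p53 against siControl cells (adjusted p 0.0218) and by 1.10 ± 0.27 against siLATS1/2 cells (0.0356). SOAT1, which esterifies cholesterol, rose by 0.45 ± 0.11 against siControl cells (0.0398). Of the 10 tested genes of this group, 6 had positive and 4 negative differences in siLATS1/2/p53 minus siControl. None was called lower in any comparison without the batch term. ABCG1 had means of 7.43 in both siLATS1/2/p53 and siLATS1/2 cells, 7.91 in sip53 cells and 8.1 in siControl cells. ABCA1 was at the floor in all libraries. The part of LXR in these differences was not tested.

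Of 17 tested further fatty acid genes, SCD5 passed in all 5 comparisons. SCD5, a second stearoyl-CoA desaturase, had 11.33 and 11.19 in siLATS1/2/p53 cells, 12.42 and 12.37 in siLATS1/2 cells, 10.38 and 10.26 in sip53 cells, and 11.60 and 11.59 in siControl cells. The groups lay in the same order as for FADS3 and did not overlap. SCD5 rose by 0.80 ± 0.09 in siLATS1/2 against siControl cells (adjusted p 0.00471) and by 0.94 ± 0.09 in siLATS1/2/p53 against sip53 cells (0.00278). It fell by 1.27 ± 0.09 in sip53 against siControl cells (0.00204), by 1.13 ± 0.09 in siLATS1/2/p53 against siLATS1/2 cells (0.00267) and by 0.33 ± 0.09 in siLATS1/2/p53 against siControl cells (0.0429).

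Of these 17 genes, 4 rose in siLATS1/2/p53 against siControl cells and 3 fell, beside 9.07% and 5.48% of all entries. TECR, the final reductase of chain elongation, rose by 0.93 ± 0.14 (adjusted p 0.00746) and SLC25A1, the mitochondrial citrate carrier, by 0.77 ± 0.11 (0.00616). ELOVL3 rose by 1.10 ± 0.25 (0.0296), a value that understates the change because a siControl library was at the floor, and MCAT, of mitochondrial fatty acid synthesis, by 0.58 ± 0.14 (0.0305). ACSL4, an acyl-CoA synthetase, fell by 0.87 ± 0.17 (0.0162), ELOVL4 by 0.43 ± 0.10 (0.028) and SCD5 as above. Against siLATS1/2 cells TECR rose in siLATS1/2/p53 cells by 0.95 ± 0.14 (0.00846), ELOVL3 by 1.00 ± 0.25 (0.0397), SLC25A1 by 0.42 ± 0.11 (0.046) and MID1IP1, a regulator of acetyl-CoA carboxylase, by 0.41 ± 0.10 (0.0378). Against sip53 cells SLC25A1 rose by 0.61 ± 0.11 (0.03). Of the 25 differences called in these other genes, 6 passed whichever library was left out, namely MYLIP, TECR and SLC25A1 in siLATS1/2/p53 against siControl cells and the SCD5 falls in sip53 cells and against siLATS1/2 cells and its rise against sip53 cells. After rescaling 19 of the 25 passed. Those that did not were SOAT1 (0.37, adjusted p 0.0614) and MCAT (0.51, 0.0502) in siLATS1/2/p53 against siControl cells, and NR1H3 (0.94, 0.067), ELOVL3 (0.84, 0.0911), SLC25A1 (0.26, 0.146) and MID1IP1 (0.25, 0.137) against siLATS1/2 cells.

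With the batch term more of these other genes passed, and so did more of all entries. Of the 7 sterol synthesis genes, 0 were then higher and 4 lower in siLATS1/2 against siControl cells, 1 higher and 0 lower in sip53 against siControl cells, and 1 higher and 2 lower in siLATS1/2/p53 against siControl cells. In siLATS1/2/p53 cells 2 were higher and 0 lower against siLATS1/2 cells, and 0 higher and 3 lower against sip53 cells. Of the 10 genes of uptake, export and processing, the numbers higher and lower in the same order of comparisons were 1 and 1, 3 and 1, 3 and 3, 4 and 2, and 2 and 1. Of the 17 fatty acid genes they were 3 and 4, 4 and 2, 6 and 3, 8 and 2, and 4 and 3. Beside these counts, 32.0%, 26.0%, 39.2%, 43.5% and 22.1% of all entries passed with the batch term, in either direction and the same order. Whether any of the lists passed more often than all entries was not tested.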

How the data were processed

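RNA with poly(A) tails was sequenced from MCF10A cells, 2 libraries per siRNA treatment and 8 in all. Per the labels' protocols, the TruSeq RNA kit (v2), which does not keep strand, was used, and the libraries shared a lane. Per the submitters' processing notes, reads were handled with TopHat and hg19, without versions. The read counter, annotation, scaling and reason for the floor were not stated in those sources. The authors deposited log2 expression levels with a floor of 5 (32 on the linear scale). Base 2 was taken because low values then lay near whole multiples on the linear scale. Depth is unknown and reads could not be recovered from the values, which left out tests on counts, and 2 libraries per group limit the precision.

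limma 3.58.1 (R 4.3.3), with its mean-variance trend, was fitted once to all 4 groups, leaving 4 residual degrees of freedom. It covered 12315 of 29991 entries (17422 were at the floor in all libraries), with Benjamini-Hochberg adjustment over them and a threshold of 0.05. No pseudocount was added, since the values were already logged. Per the labels the replicates came from independent batches, and same-numbered libraries were taken to share one. Their deviations from group means correlated at 0.565 to 0.726 over 6 pairs of groups. The batch term (3 residual degrees of freedom) is therefore given where it changes the call of a member, and as counts for the other lists. The members, arms and other gene lists were chosen with earlier results of these data known. Named were members past the threshold in either fit, 8 set members in every case and other pathway genes past the threshold. Results of some of these genes are not reported here. Overlapping genes were named from GENCODE 29, and promoter coordinates are those of GRCh38.p14, not of the build used for alignment. As alternatives, libraries were rescaled by medians of ratios or left out in turn, and other filters, a pseudocount of 1, the batch term with and without rescaling, no variance trend and only the groups compared were tried. When a library is left out, its group has a single sample, assumed to vary like the other groups, and batch differences enter. The procedure was tested on simulated data.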

Additional observations from a re-analysis of the deposited data

How the results depend on the processing

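The number of the 35 genes called depended on the treatment of the batch. In the order siLATS1/2, sip53 and siLATS1/2/p53 each minus siControl, then siLATS1/2/p53 minus siLATS1/2 and minus sip53, it was 4, 2, 7, 6 and 3. With the replicate block it was 13, 11, 22, 17 and 11, and with the block and rescaling 15, 12, 21, 19 and 11. Over all entries the block moved the calls to 3937, 3199, 4832, 5361 and 2720, against 948, 475, 1792, 1791 and 451, and to 250 against 0 for the interaction. Without a filter on low values it was 0, 0, 1, 1 and 0. With only the groups compared it was 2, 0, 4 and 3 in the first 4 comparisons, and without the variance trend 2 in the first.

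With each library left out in turn the counts ranged from 0 to 3, from 1 to 2, from 3 to 7, from 2 to 7 and from 1 to 3, and stayed at 0 for the interaction. In the first comparison the count was 0 without siLATS1/2 replicate 1, 1 without siLATS1/2 replicate 2 or siControl replicate 1, and 2 without either sip53 library. In the second it was 1 without sip53 replicate 2. In the third it was 4 without siLATS1/2/p53 replicate 1 and 3 without its replicate 2 or siControl replicate 1. In the fourth it was 2 without siLATS1/2/p53 replicate 1 or either siLATS1/2 library. In the fifth it was 1 without either siLATS1/2/p53 library. Apart from the larger number of entries tested without a filter and the fewer samples in the smaller fits, the cause was not tested.

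None of the 22 differences called in single genes changed sign under any of these alternatives. Of them, 2 missed the threshold after rescaling, 4 without the variance trend, 10 with only the groups compared, 20 without a filter and 1 among entries above the floor in all 8 libraries. Rescaling also moved the share of higher calls among all entries to 55.6% from 36.5% in siLATS1/2 minus siControl, and to 45.8% from 77.9% in siLATS1/2/p53 minus siLATS1/2. It moved that share to 26.2% from 45.7% in sip53 minus siControl and to 47.4% from 62.3% in siLATS1/2/p53 minus siControl. Read depth is unknown, and the precision of each difference is that of its SE over 2 libraries per group.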
